A study of Mus musculus with 2 samples.

Results

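Sonic hedgehog signalling was followed through 9 genes in single cells of embryonic mouse brain: the ligand gene Shh, the receptor and surface genes Ptch1, Hhip, Cdon and Boc, the transducer gene Smo, and the transcription factor genes Gli1, Gli2 and Gli3. They were chosen by name from the 32285 genes of the count tables, with no threshold on a measured value. The study raised embryos with neural tube defects (NTD) by folate restriction and compared their brains with control brains, with 1 single-cell library for each group. In the NTD group the pregnant mice were on a low-folate diet and received methotrexate (MTX), a folate antagonist, at 1.5 mg/kg into the peritoneum on gestational day 7.5. In the control group the treatment was normal saline. Neural tube closure was scored at embryonic days 9.5 to 10.5. NTD embryos were described as delayed and small, with hindbrain malformations and spina bifida, and control embryos as plump with closed tubes. The sources used here do not state the diet of the control dams or the number, sex and exact stage of the embryos behind each library, so diet, drug, developmental stage and library cannot be told apart. With 1 library per group no difference has a replicate check, no p-value was computed, and every interval is a 95% interval for counting error only.

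Shh protein is secreted by the floor plate and by the notochord beneath it, and it forms a gradient along the ventral to dorsal axis of the neural tube. Without ligand, the receptor Patched1 (Ptch1) holds Smoothened (Smo) inactive, and Gli3 is processed mainly into a repressor. With ligand, Smo enters the primary cilium and the Gli proteins act as activators, with Gli1, Ptch1 and Hhip among the genes they induce. In the mouse, loss of Shh removes ventral cell types, and overactive Hedgehog signalling can itself prevent closure of the cranial neural tube.

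Promoter sequences were available for 6 of the 9 genes and are credited to RefSeq (GRCm38.p6), with 250 bases before and 50 after the listed start. They were searched on both strands for the 7-letter core of the Gli binding site, ACCACCC or GGGTGGT, which occurred in 1514 of 32851 promoters (4.61%). Of the 6, Gli2 held 1 match, 205 bases before its start, and the windows of Ptch1, Hhip, Smo, Cdon and Gli3 held none. Shown are the Gli2 window (chr1:119053570-119053869, minus strand), where capitals mark the match, and those of the 2 induced genes present, Ptch1 (chr13:63565686-63565985, minus strand) and Hhip (chr8:80057959-80058258, minus strand), 5′ to 3′ on the gene's strand. The Ptch1, Cdon and Gli3 windows lie at starts inside the annotated spans of these genes. A match or its lack is a description of these letters in this window.
Gli2: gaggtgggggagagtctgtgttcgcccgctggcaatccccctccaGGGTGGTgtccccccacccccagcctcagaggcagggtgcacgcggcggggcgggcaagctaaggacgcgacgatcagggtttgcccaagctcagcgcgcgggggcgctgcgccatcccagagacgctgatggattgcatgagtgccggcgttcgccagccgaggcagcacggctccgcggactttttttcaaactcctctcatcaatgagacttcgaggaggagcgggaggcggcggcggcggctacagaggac
Ptch1: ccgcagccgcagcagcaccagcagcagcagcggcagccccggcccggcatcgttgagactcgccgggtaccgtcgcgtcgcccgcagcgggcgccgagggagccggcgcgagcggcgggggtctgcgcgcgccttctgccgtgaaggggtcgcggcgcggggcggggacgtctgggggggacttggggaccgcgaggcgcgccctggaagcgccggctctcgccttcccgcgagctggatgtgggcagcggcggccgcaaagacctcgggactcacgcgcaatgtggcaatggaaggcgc
Hhip: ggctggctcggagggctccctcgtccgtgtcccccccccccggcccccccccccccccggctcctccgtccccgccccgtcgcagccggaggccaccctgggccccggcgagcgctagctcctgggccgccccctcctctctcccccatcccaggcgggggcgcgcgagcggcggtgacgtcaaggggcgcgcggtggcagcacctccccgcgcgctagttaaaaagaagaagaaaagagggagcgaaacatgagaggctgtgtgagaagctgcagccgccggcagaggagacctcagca

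After removal of called doublets the NTD library held 16151 cells with 45312130 UMIs (unique molecular identifiers, counted transcripts) and a median of 2437 UMIs per cell, and the control library 15813 cells with 39629955 UMIs and a median of 2167. The libraries shared 105 barcodes. The cells formed 29 clusters, of which 26 took one of 10 class names from marker genes. The labelled tissue was checked against these markers. Neural progenitor-like and neuron-like cells made up 37.7% and 12.7% of the NTD library and 19.4% and 8.37% of the control library. Mesenchyme or fibroblast-like cells, which are not neural, numbered 3237 in NTD and 5802 (36.7%) in control, and liver, yolk sac or trophoblast-like cells were 3 in NTD and 148 in control. Of the progenitor-like cells, 87.6% in NTD and 32.6% in control held no UMI of any Hox gene, the genes that mark hindbrain and spinal cord. Free RNA was present in both libraries. Afp, a product of liver and yolk sac, stood at 0 to 9.91 CPM (a gene's UMIs scaled to a fixed total of UMIs) in the 9 other classes of the NTD library and at 119 to 184 CPM in those of the control library. Most measured genes were slightly lower in NTD than in control on this scale, with a median log2 ratio of -0.19 over 16583 genes in progenitor-like cells and -0.24 over 19789 genes in all kept cells. These medians became 0.025 and 0.0098 with TMM scaling, which centres the bulk of the genes, so each ratio below is to be read against them.

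**Figure D1:**
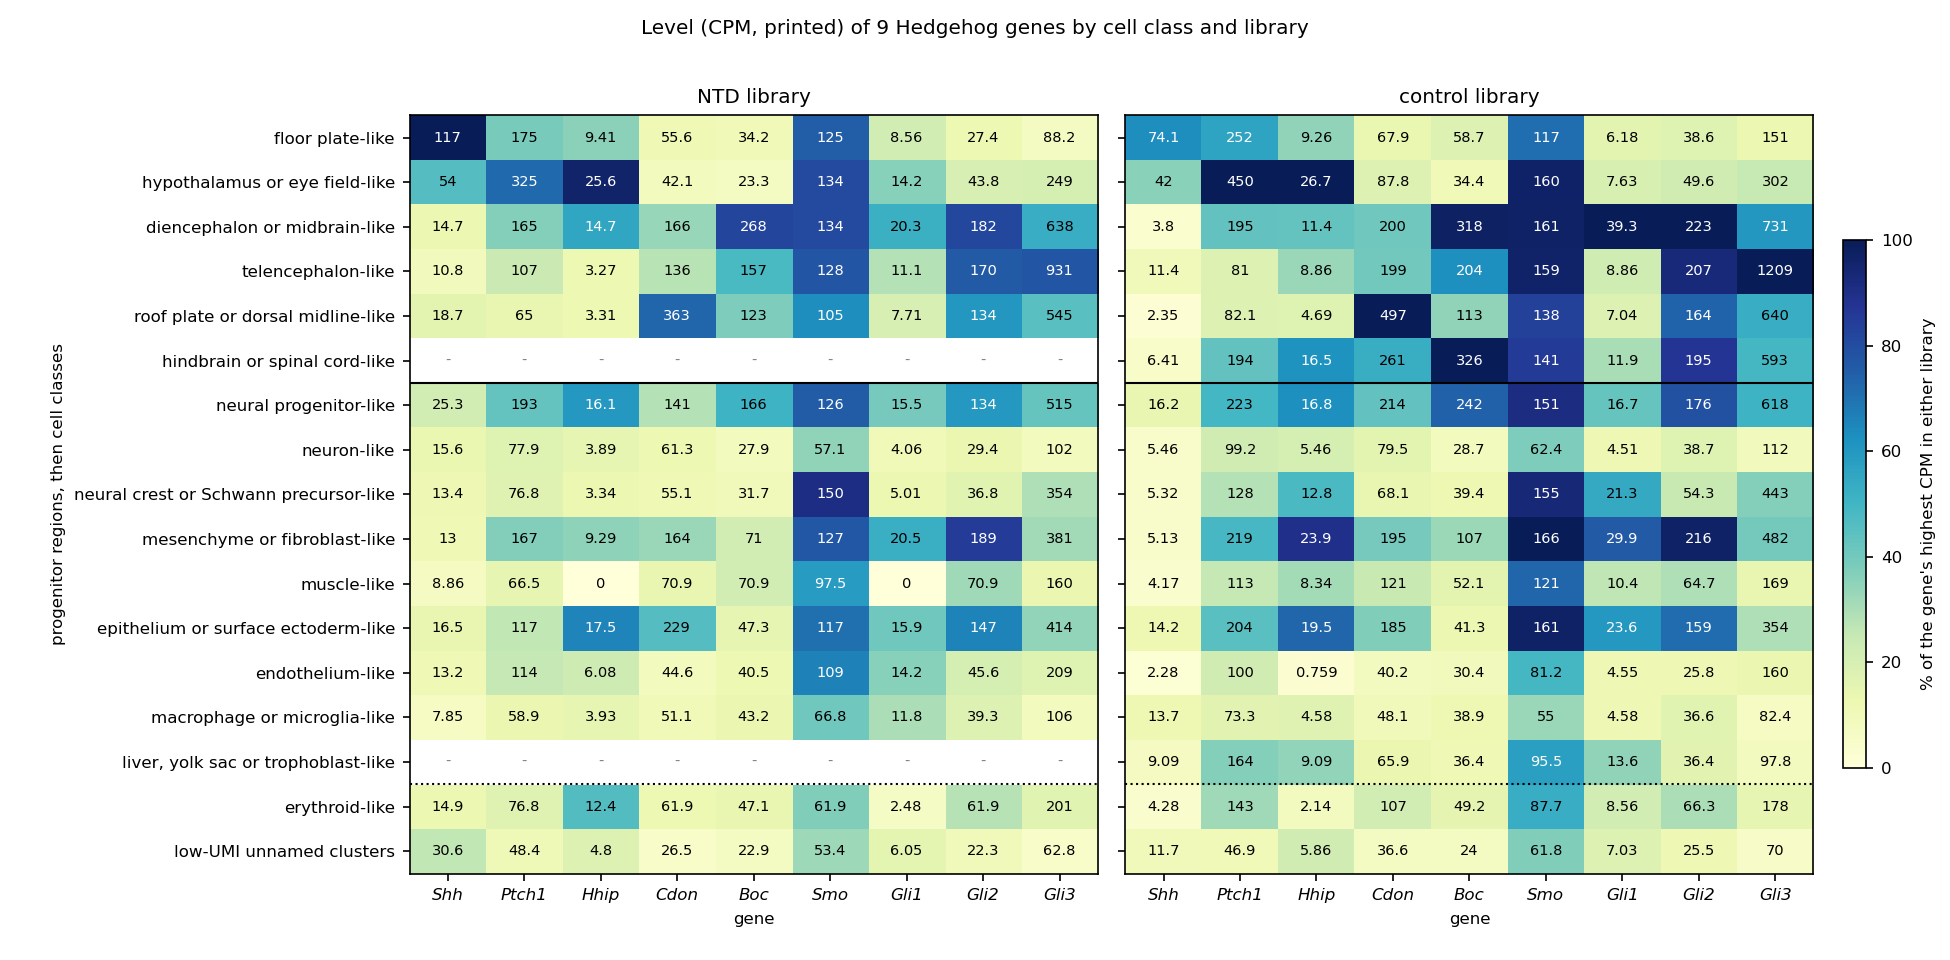
Level in CPM of the 9 genes in progenitor regions and cell classes, NTD library left and control library right. Colour gives each value as a share of that gene's highest level in either library, and a dash marks a unit with under 50 cells. Shh was highest in floor plate-like cells, with 117 CPM in NTD and 74.1 CPM in control, Cdon in roof plate-like cells and Gli3 in telencephalon-like cells.

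Shh (ENSMUSG00000002633, chromosome 5, 28456815 to 28467256 on the minus strand, GENCODE M21 on GRCm38) had its highest levels in 2 progenitor regions of both libraries. Floor plate-like cells, named from a marker list without Shh that included Spon1, Ntn1 and Slit1, held 117 CPM (98.4 to 139) in NTD and 74.1 CPM (54.7 to 98.3) in control. Foxa2 gave 28 UMIs in the 373 NTD cells and 24 UMIs in the 256 control cells, and Foxa1 gave 37 and 17. Over the region neither gene was thus held by 10% of the cells, though both were higher than in other cells. Hypothalamus or eye field-like cells held 54.0 CPM (43.7 to 66.0) in NTD and 42.0 CPM (20.96 to 75.1) in control. In each library these were the only regions whose lower bound lay above the upper bound of erythroid-like cells, which should lack Shh and stand here for free RNA, at 14.9 CPM (5.45 to 32.3) in NTD and 4.28 CPM (0.518 to 15.5) in control. No whole cell class passed that line in either library. The floor plate-like cells were 2.31% of kept cells in NTD and 1.62% in control, yet gave 14.9% of all Shh UMIs in NTD and 14.5% in control. Hypothalamus or eye field-like cells gave 10.3% in NTD and 3.33% (11 UMIs) in control. Most Shh UMIs thus lay outside these regions, with 14.1% in NTD and 25.2% in control in mesenchyme or fibroblast-like cells.

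Over all kept cells Shh was the one gene of the 9 that was at least 1.5-fold higher in NTD, beside 5.28% of all 19789 measured genes. It stood at 20.3 CPM in NTD (921 UMIs) and 8.33 CPM in control (330 UMIs), and the log2 ratio was 1.29 (1.10 to 1.47). None of the 9 was at least 1.5-fold lower, beside 22.2% of all genes; the other ratios lay between -0.58 for Hhip and -0.17 for Gli3, and with TMM scaling Gli3 and Boc turned to 0.080 and 0.064. For Shh a difference of the same sign was present in several classes outside the Shh-rich regions. Mesenchyme or fibroblast-like cells held 12.99 CPM in NTD and 5.13 CPM in control (log2 ratio 1.34, 0.93 to 1.76), where Shh was the one gene of the 9 past 1.5-fold higher beside 6.54% of genes. Neuron-like cells held 15.6 CPM in NTD and 5.46 CPM in control (log2 ratio 1.49, 0.84 to 2.24), again the one gene of 9 past the fold, beside 9.33% of genes higher and 15.9% lower. The 2 unnamed clusters with few UMIs per cell held 30.6 CPM in NTD and 11.7 CPM in control. In endothelium-like cells Shh was 13.2 CPM in NTD and 2.28 CPM in control, and in roof plate or dorsal midline-like cells 18.7 CPM in NTD and 2.35 CPM in control. Epithelium or surface ectoderm-like cells gave no difference beyond counting error, with 16.5 CPM in NTD and 14.2 CPM in control (log2 ratio 0.21, -0.59 to 1.04). Macrophage or microglia-like cells held 7.85 CPM from 2 UMIs in NTD and 13.7 CPM from 6 UMIs in control. The low level of Shh was thus higher in NTD in the mesenchyme or fibroblast-like, neuron-like and low-UMI cells, and its part in the difference over all cells was not tested.

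Within the 2 regions that held Shh above that level the log2 ratios were smaller. Their intervals overlapped those of mesenchyme or fibroblast-like and neuron-like cells, and the difference between the classes was not tested. In floor plate-like cells the log2 ratio was 0.65 (0.18 to 1.17), the one gene higher by 1.5-fold of the 7 measured there, beside 8.2% of genes, and in hypothalamus or eye field-like cells it was 0.31 (-0.54 to 1.41), an interval that holds 0. Over all neural progenitor-like cells Shh was 25.3 CPM in NTD and 16.2 CPM in control (log2 ratio 0.64, 0.36 to 0.94), the one gene of the 9 higher by 1.5-fold, beside 5.16% of 16583 genes. In progenitor-like cells without a Hox UMI it was 24.6 CPM in NTD (380 UMIs) and 20.6 CPM in control (45 UMIs) (log2 ratio 0.25, -0.19 to 0.74). The fold call in progenitors therefore ended when cells with a Hox UMI were left out. In progenitor-like cells with a Hox UMI the log2 ratio was 1.02 (0.55 to 1.49).

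Cell by cell, a single UMI of Shh was not specific, so shares were set beside those of erythroid-like cells. After each cell was thinned to 1589 UMIs, 15.3% of 373 floor plate-like cells (11.8 to 19.3%) held a Shh UMI in NTD and 9.71% of 206 (6.03 to 14.6%) in control, where 50 shallower cells were left out. Without thinning the shares were 25.2% in NTD and 15.6% in control. The thinned share in erythroid-like cells was 3.85% in NTD and 0 of 125 cells in control, an exact upper bound of 2.91%, at median depths of 2127 UMIs in NTD and 1645 in control against 2607 and 2204 in the floor plate-like cells of NTD and control. Cells with at least 2 Shh UMIs numbered 63 in NTD and 18 in control, and 44 of the 63 in NTD and 11 of the 18 in control were progenitor-like. No erythroid-like cell reached 2 UMIs in either library. The 44 NTD progenitors with at least 2 Shh UMIs held 29 UMIs of Nkx2-1, a hypothalamic transcription factor gene, and 6 of the floor plate gene Foxa2. The 11 in control held 1 of Nkx2-1 and 3 of Foxa2. Ptch1 in these Shh-positive cells lay within its counting error of other progenitors. It stood at 172 CPM (124 to 232) in them in NTD against 189 CPM in NTD progenitors without a Shh UMI, and 276 CPM (161 to 442) in control against 220 CPM in control progenitors without one.

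**Figure D2:**
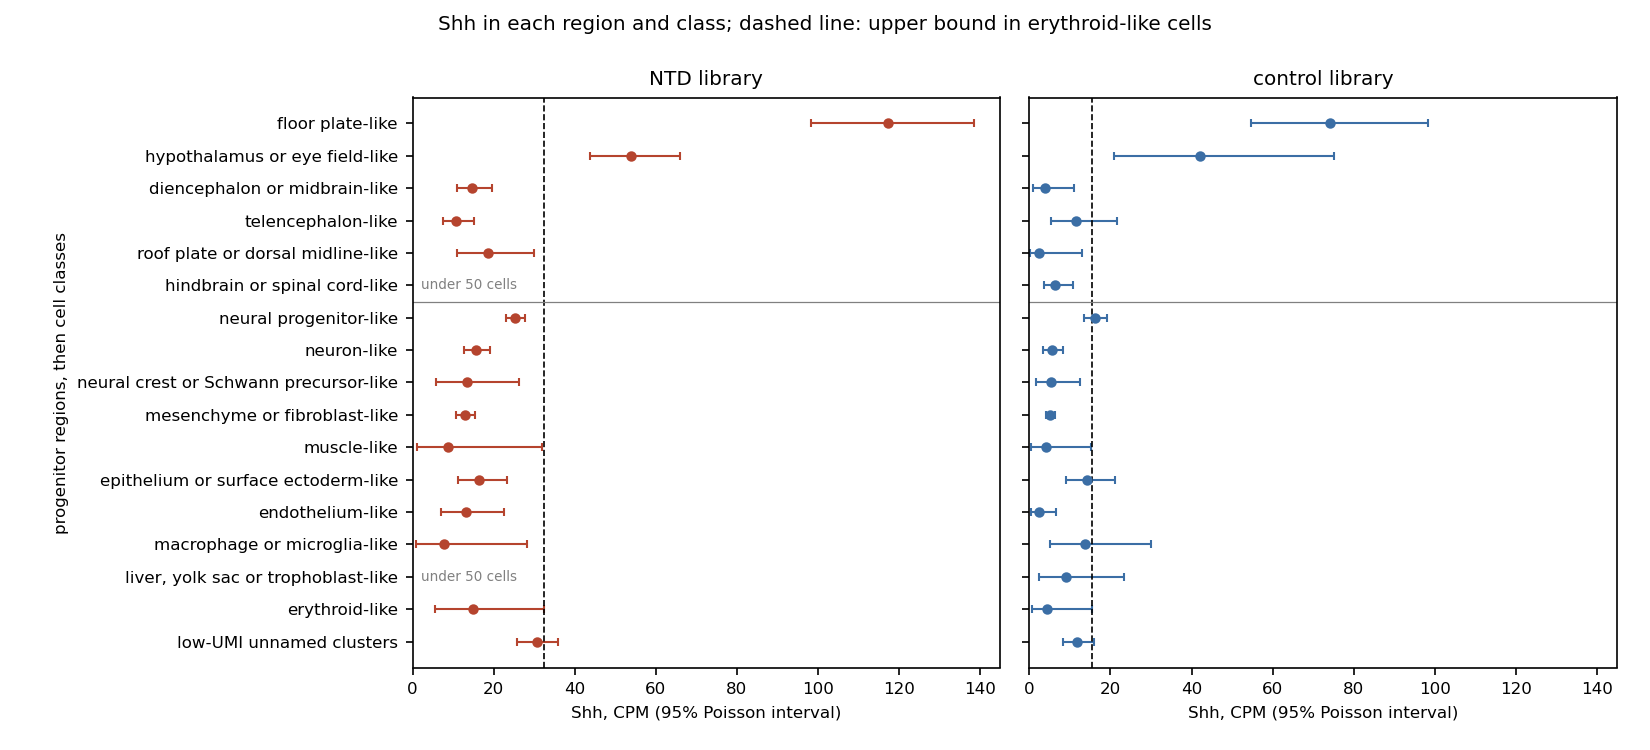
Shh level in CPM with its 95% Poisson interval in each progenitor region and cell class, NTD library left and control library right. Floor plate-like and hypothalamus or eye field-like cells lie right of the dashed line, the upper bound in erythroid-like cells, which is 32.3 CPM in NTD and 15.5 CPM in control.

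Ptch1 (ENSMUSG00000021466, chromosome 13, 63508328 to 63573598, minus strand) encodes the Shh receptor and is itself induced by the pathway. It was highest in hypothalamus or eye field-like progenitors, at 325 CPM in NTD (572 UMIs) and 450 CPM in control (118 UMIs) (log2 ratio -0.47, -0.76 to -0.17). Floor plate-like cells came next in both libraries, at 175 CPM in NTD and 252 CPM in control (log2 ratio -0.52, -0.82 to -0.21), though in each library their interval overlapped that of diencephalon or midbrain-like cells, at 165 CPM in NTD and 195 CPM in control. The hypothalamus and floor plate ratios lie below the median of all genes there, which was -0.14 in hypothalamus or eye field-like and -0.11 in floor plate-like cells. Telencephalon-like cells went the other way, with 107 CPM in NTD and 81.0 CPM in control (log2 ratio 0.40, 0.01 to 0.81). Over all progenitor-like cells Ptch1 was 193 CPM in NTD and 223 CPM in control. Its log2 ratio there, -0.21 (-0.30 to -0.13), was close to the median of all genes and turned to 0.00047 with TMM scaling. Erythroid-like cells were not free of Ptch1, with 76.8 CPM in NTD and 143 CPM in control, so low Ptch1 levels in other classes cannot be read as expression.

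Hhip (ENSMUSG00000064325, chromosome 8, 79965851 to 80058006, minus strand) encodes a membrane protein that binds and sequesters the ligand. In hypothalamus or eye field-like cells it was 25.6 CPM (18.7 to 34.2) in NTD and 26.7 CPM (10.7 to 55.1) in control. In all progenitor-like cells it was 16.1 CPM in NTD and 16.8 CPM in control (log2 ratio -0.067, -0.36 to 0.24). Over all progenitor-like cells the Hhip difference was therefore within counting error; its sign was positive with TMM scaling (0.15), with thinned cells (0.26) and without Hox-positive cells (0.28). In mesenchyme or fibroblast-like cells Hhip was 9.29 CPM (93 UMIs) in NTD and 23.9 CPM (386 UMIs) in control, with a log2 ratio of -1.36 (-1.70 to -1.03). It was the one gene of the 9 at least 1.5-fold lower in that class, beside 17.4% of its 16791 measured genes. Boc fell just short of the fold there, with a log2 ratio of -0.58 from 711 UMIs in NTD and 1724 in control. The Hhip level in NTD does not exceed that of erythroid-like cells, 12.4 CPM in NTD against 2.14 CPM in control. Different clusters hold most of this class in the libraries. Cluster 2 gave 1944 of the 3237 NTD cells, while clusters 5, 9 and 10 gave 1419, 1348 and 1297 of the 5802 control cells. In cluster 5 the Hhip log2 ratio was -1.98 and in cluster 2 it was 0.52, an alternative added after the values were seen, and the part of these clusters in the difference was not tested.

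Cdon (ENSMUSG00000038119, chromosome 9, 35421128 to 35507652, plus strand) and Boc (ENSMUSG00000022687, chromosome 16, 44485049 to 44558897, minus strand) encode related membrane proteins that bind Shh and promote signalling beside Ptch1, and pathway activity lowers their transcripts. Cdon was highest in roof plate or dorsal midline-like cells, at 363 CPM in NTD and 497 CPM in control (log2 ratio -0.46, -0.71 to -0.20). Boc was highest in diencephalon or midbrain-like cells of the NTD library, at 268 CPM in NTD and 318 CPM in control (log2 ratio -0.25, -0.45 to -0.04). The hindbrain or spinal cord-like cells, 31 in NTD and 898 in control, held 326 CPM of Boc in control. Cdon and Boc were low where Shh was high. Floor plate-like cells held 55.6 CPM of Cdon in NTD and 67.9 CPM in control, near or below the erythroid-like 61.9 CPM in NTD and 107 CPM in control.

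In neural progenitor-like cells Cdon was the one gene of the 9 at least 1.5-fold lower in NTD, beside 14.6% of all 16583 measured genes, with 141 CPM in NTD and 214 CPM in control (log2 ratio -0.60, -0.69 to -0.51). Boc was close behind, at 166 CPM in NTD and 242 CPM in control (log2 ratio -0.54, -0.63 to -0.46). A single gene of 9 is near the background share, and with TMM scaling Cdon was -0.39 and no gene was lower by the fold, nor was any with doublets kept. In progenitor-like cells without a Hox UMI the ratios were -0.31 for Cdon (-0.46 to -0.15) and -0.41 for Boc (-0.55 to -0.26). In those with a Hox UMI Cdon was 108 CPM in NTD and 226 CPM in control (log2 ratio -1.06, -1.26 to -0.87). Cluster 4, which held 1294 of the 3064 control and 654 of the 6091 NTD progenitors, gave a Cdon log2 ratio of -2.14, while cluster 1, with 2283 NTD and 621 control cells, gave -0.73. The size of the Cdon difference thus moved with Hox-positive cells, and their part in it was not tested. In epithelium or surface ectoderm-like cells Cdon went the other way, at 229 CPM in NTD and 185 CPM in control (log2 ratio 0.31, 0.10 to 0.52).

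Smo (ENSMUSG00000001761, chromosome 6, 29735503 to 29761365, plus strand) encodes the signal transducer and lay in a narrow range. Over the 5 progenitor regions with at least 50 cells in each library it lay between 105 and 134 CPM in NTD and between 117 and 161 CPM in control. In all progenitor-like cells it was 126 CPM in NTD and 151 CPM in control (log2 ratio -0.27, -0.37 to -0.17). Neuron-like cells held less, 57.1 CPM in NTD and 62.4 CPM in control, which is at or below erythroid-like cells, with 61.9 CPM in NTD and 87.7 CPM in control.

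Gli1 (ENSMUSG00000025407, chromosome 10, 127329882 to 127341974, minus strand) encodes an activator that is itself a Hedgehog target and is read as a sign of pathway activity. In progenitor-like cells it was 15.5 CPM (276 UMIs) in NTD and 16.7 CPM (136 UMIs) in control (log2 ratio -0.11, -0.41 to 0.20; 0.10 with TMM scaling). Splitting these cells by Hox UMIs gave opposite values. Without a Hox UMI Gli1 was 14.8 CPM in NTD and 22.4 CPM in control (log2 ratio -0.60, -1.04 to -0.12), the one gene of the 9 at least 1.5-fold lower there, beside 14.2% of 15547 genes, while none was higher, beside 5.13%. With a Hox UMI it was 19.3 CPM in NTD and 14.6 CPM in control (log2 ratio 0.41, -0.14 to 0.93). Its highest region was diencephalon or midbrain-like, at 20.3 CPM (66 UMIs) in NTD and 39.3 CPM (31 UMIs) in control (log2 ratio -0.97, -1.59 to -0.29), the one gene of 9 lower by 1.5-fold there, beside 15.3% of genes, with Shh the one gene higher, beside 6.78%. Outside the neural classes, mesenchyme or fibroblast-like cells held 20.5 CPM in NTD and 29.9 CPM in control (log2 ratio -0.54, -0.79 to -0.31). These 2 units were the ones above erythroid-like cells, which held 2.48 CPM (0.0627 to 13.8) in NTD and 8.56 CPM (2.33 to 21.9) in control.

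Gli2 (ENSMUSG00000048402, chromosome 1, 118834132 to 119053619, minus strand) encodes the main activator and Gli3 (ENSMUSG00000021318, chromosome 13, 15463235 to 15730026, plus strand) the main repressor of the pathway in the neural tube. Gli3 was highest in telencephalon-like cells, at 931 CPM in NTD and 1209 CPM in control (log2 ratio -0.38, -0.48 to -0.27), and lowest among the regions in floor plate-like cells, at 88.2 CPM in NTD and 151 CPM in control (log2 ratio -0.78, -1.19 to -0.37). Gli2 was likewise lowest in floor plate-like cells, at 27.4 CPM in NTD and 38.6 CPM in control. It was 182 CPM in NTD and 223 CPM in control in diencephalon or midbrain-like cells (log2 ratio -0.30, -0.54 to -0.04). Over all progenitor-like cells Gli2 was 134 CPM in NTD and 176 CPM in control (log2 ratio -0.40, -0.49 to -0.30). Gli3 was 515 CPM in NTD and 618 CPM in control (log2 ratio -0.26, -0.31 to -0.21), and this ratio became -0.050 with TMM scaling. In floor plate-like cells Gli3 and Boc were the 2 of 7 genes at least 1.5-fold lower, beside 14.7% of genes. In hypothalamus or eye field-like cells Cdon, at 42.1 CPM in NTD and 87.8 CPM in control, and Boc, at 23.3 CPM in NTD and 34.4 CPM in control with an interval that holds 0, were the 2 of 9 genes lower, beside 19.9% of genes. Gli1 was the one higher there, beside 10.8%, from 25 UMIs in NTD and 2 in control. None passed the fold in telencephalon-like cells, beside 7.23% higher and 14.1% lower, or in roof plate or dorsal midline-like cells, beside 10.8% higher and 19.5% lower.

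Each cell class was set against the upper bound in erythroid-like cells of the same library. Ptch1, Smo, Cdon and Boc were read for receiving and Gli1, Ptch1 and Hhip for responding, so a class can be both. Ptch1, which counts for both, stood above that bound in mesenchyme or fibroblast-like and neural progenitor-like cells of both libraries, and in control also in epithelium or surface ectoderm-like cells. Smo did so in 4 classes of each library, those 3 plus the neural crest or Schwann precursor-like class. Cdon passed it in epithelium or surface ectoderm-like, mesenchyme or fibroblast-like and progenitor-like cells of both libraries, and Boc in progenitor-like cells of both and in control also in mesenchyme or fibroblast-like cells. Of the response genes other than Ptch1, Gli1 passed in mesenchyme or fibroblast-like cells of both libraries, and Hhip in no class of NTD and in 3 of control. Erythroid-like cells were few, 156 in NTD and 227 in control, so their upper bounds are wide and a class below them is not shown to lack a gene. Against the unnamed clusters with few UMIs instead, Hhip passed in 3 classes of NTD and 3 of control, Gli1 in 3 of NTD and 4 of control, and Shh still in no class and in the same 2 regions of each library. Ptch1 then passed in 6 classes of NTD and 9 of control. Erythroid-like cells themselves passed for Gli2, Gli3, Cdon and Boc in both libraries and for Ptch1 in control. The backgrounds thus differ for these genes, and which lies nearer to free RNA was not tested.

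**Figure D3:**
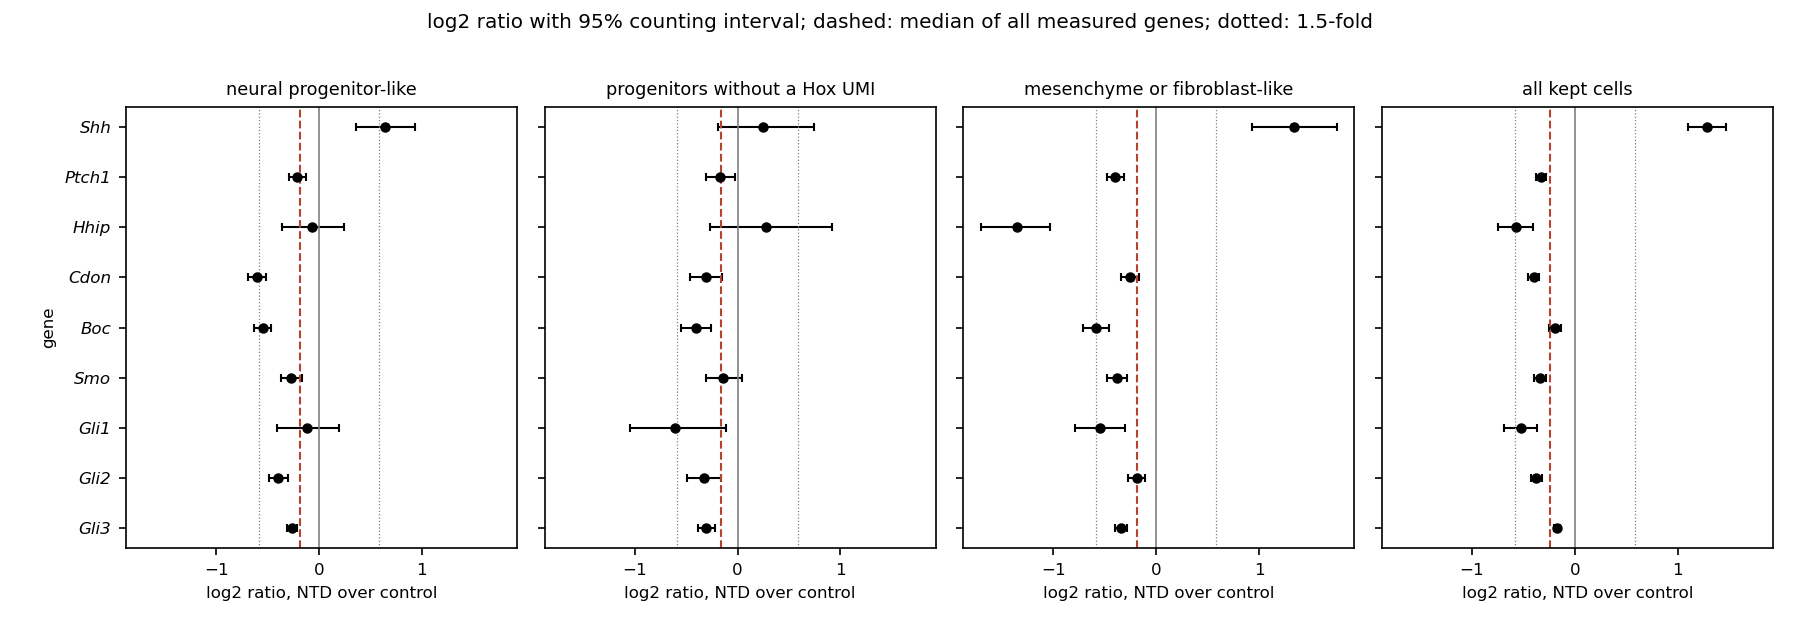
Log2 ratio of NTD over control of each of the 9 genes with its 95% counting interval in 4 sets of cells; the dashed line is the median of all measured genes and the dotted lines mark 1.5-fold. In progenitor-like cells Shh lies at 0.64 and Cdon at -0.60, and without Hox-positive cells they lie at 0.25 and -0.31.

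The position of progenitors along the ventral to dorsal axis was read from 7 domain genes, none of them among the 9, by taking progenitor-like cells with at least 1 UMI of each. A cell could fall in more than 1 domain, and a single UMI may be free RNA, so it does not place a cell. Over progenitor-like cells Msx1 was 26.5 CPM in NTD and 32.4 CPM in control. Erythroid-like cells held 44.6 CPM of it in NTD and 34.2 CPM in control. In NTD Olig2, Nkx2-9, Nkx6-1 and Dbx1 also lay near or below their erythroid-like levels. Foxa2, Nkx2-2 and Pax7 had higher values than in erythroid-like cells in both libraries. Foxa2 was 4.76 CPM in NTD and 5.39 CPM in control, and Nkx2-2 was 10.0 CPM in NTD and 7.60 CPM in control. As erythroid-like cells were few, these low levels of Foxa2 and Nkx2-2 are not shown to exceed free RNA. Ptch1 was highest in cells with Nkx2-2 or Nkx2-9, genes of the p3 domain next to the floor plate, at 409 CPM in NTD (257 cells) and 390 CPM in control (64 cells). In cells with Pax7, a gene of dorsal progenitors, it was 123 CPM in NTD (556 cells) and 197 CPM in control (473 cells). The log2 ratio of the ventral over the dorsal domain was 1.73 (1.50 to 1.97) within NTD and 0.99 (0.67 to 1.29) within control. These intervals do not overlap, and the difference between the libraries was not tested. Without Hox-positive cells the ventral over dorsal log2 ratio was 1.82 (1.56 to 2.09) within NTD and 2.01 (1.21 to 2.77) within control. The control library then held under 50 cells with Nkx2-2 or Nkx2-9, below the minimum used for ratios. These values are thus too few to show whether the difference between the libraries remained. In Pax7 cells the Ptch1 log2 ratio of NTD over control was -0.68 (-0.92 to -0.45), or -0.54 (-1.04 to 0.036) without Hox-positive cells, and in Nkx2-2 or Nkx2-9 cells it was 0.063 (-0.24 to 0.38). Erythroid-like cells, which stand for free RNA here, gave a Ptch1 log2 ratio of -0.89. The part of free RNA in the Ptch1 values of Pax7 cells was not tested.

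Hhip was also highest in the Nkx2-2 or Nkx2-9 cells, at 51.8 CPM in NTD and 63.9 CPM in control, against 7.21 CPM in NTD and 17.0 CPM in control in Pax7 cells. In Pax7 cells the Hhip log2 ratio of NTD over control was -1.21 (-2.24 to -0.30), from 15 UMIs in NTD and 30 in control. The ventral over dorsal log2 ratio of Hhip was 2.81 (1.98 to 3.79) within NTD and 1.93 (1.00 to 2.79) within control. Gli1 followed the same order in NTD, with 40.8 CPM in Nkx2-2 or Nkx2-9 cells and 6.73 CPM in Pax7 cells. In control it was 16.8 CPM from 5 UMIs and 11.3 CPM from 20 UMIs, a log2 ratio of 0.67 (-1.20 to 2.03) that counting error does not separate from 0. The induced genes were thus higher in Nkx2-2 or Nkx2-9 cells than in Pax7 cells of the NTD library, and for Ptch1 and Hhip of the control library as well. The order was less clear in the other ventral domains. For cells with Nkx6-1 over Pax7 cells, the Ptch1 log2 ratio was 0.87 (0.54 to 1.19) within NTD and 0.25 (-0.16 to 0.62) within control. The same ratio of Hhip was 1.31 (-0.091 to 2.57) within NTD and 0.15 (-1.68 to 1.42) within control, and that of Gli1 was 0.62 (-1.29 to 2.09) within NTD and 0.73 (-1.15 to 2.08) within control. In Foxa2 cells over Pax7 cells Hhip was 1.69 (0.099 to 3.02) within NTD and 0.48 (-2.08 to 1.96) within control.

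Gli3, Boc and Cdon ran the opposite way in both libraries. Gli3 was 388 CPM in NTD and 424 CPM in control in Nkx2-2 or Nkx2-9 cells, and 684 CPM in NTD and 815 CPM in control in Pax7 cells. Boc was 122 CPM in NTD and 124 CPM in control in the ventral domain, and 382 CPM in NTD and 397 CPM in control in Pax7 cells. Cdon in cells with Msx1, a roof plate and dorsal progenitor gene, was 204 CPM in NTD and 415 CPM in control (log2 ratio -1.02, -1.24 to -0.80). That difference was still -1.42 (-1.80 to -1.01) without Hox-positive cells. As Msx1 lay at the level of free RNA, these cells are not shown to be dorsal. Shh was highest in Foxa2 cells, at 79.9 CPM in NTD (25 UMIs) and 130 CPM in control (19 UMIs), and Smo showed no ventral to dorsal difference beyond counting error. Requiring 2 UMIs of the domain gene left 6 NTD cells and 1 control cell with Foxa2, too few to read.

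**Figure D4:**
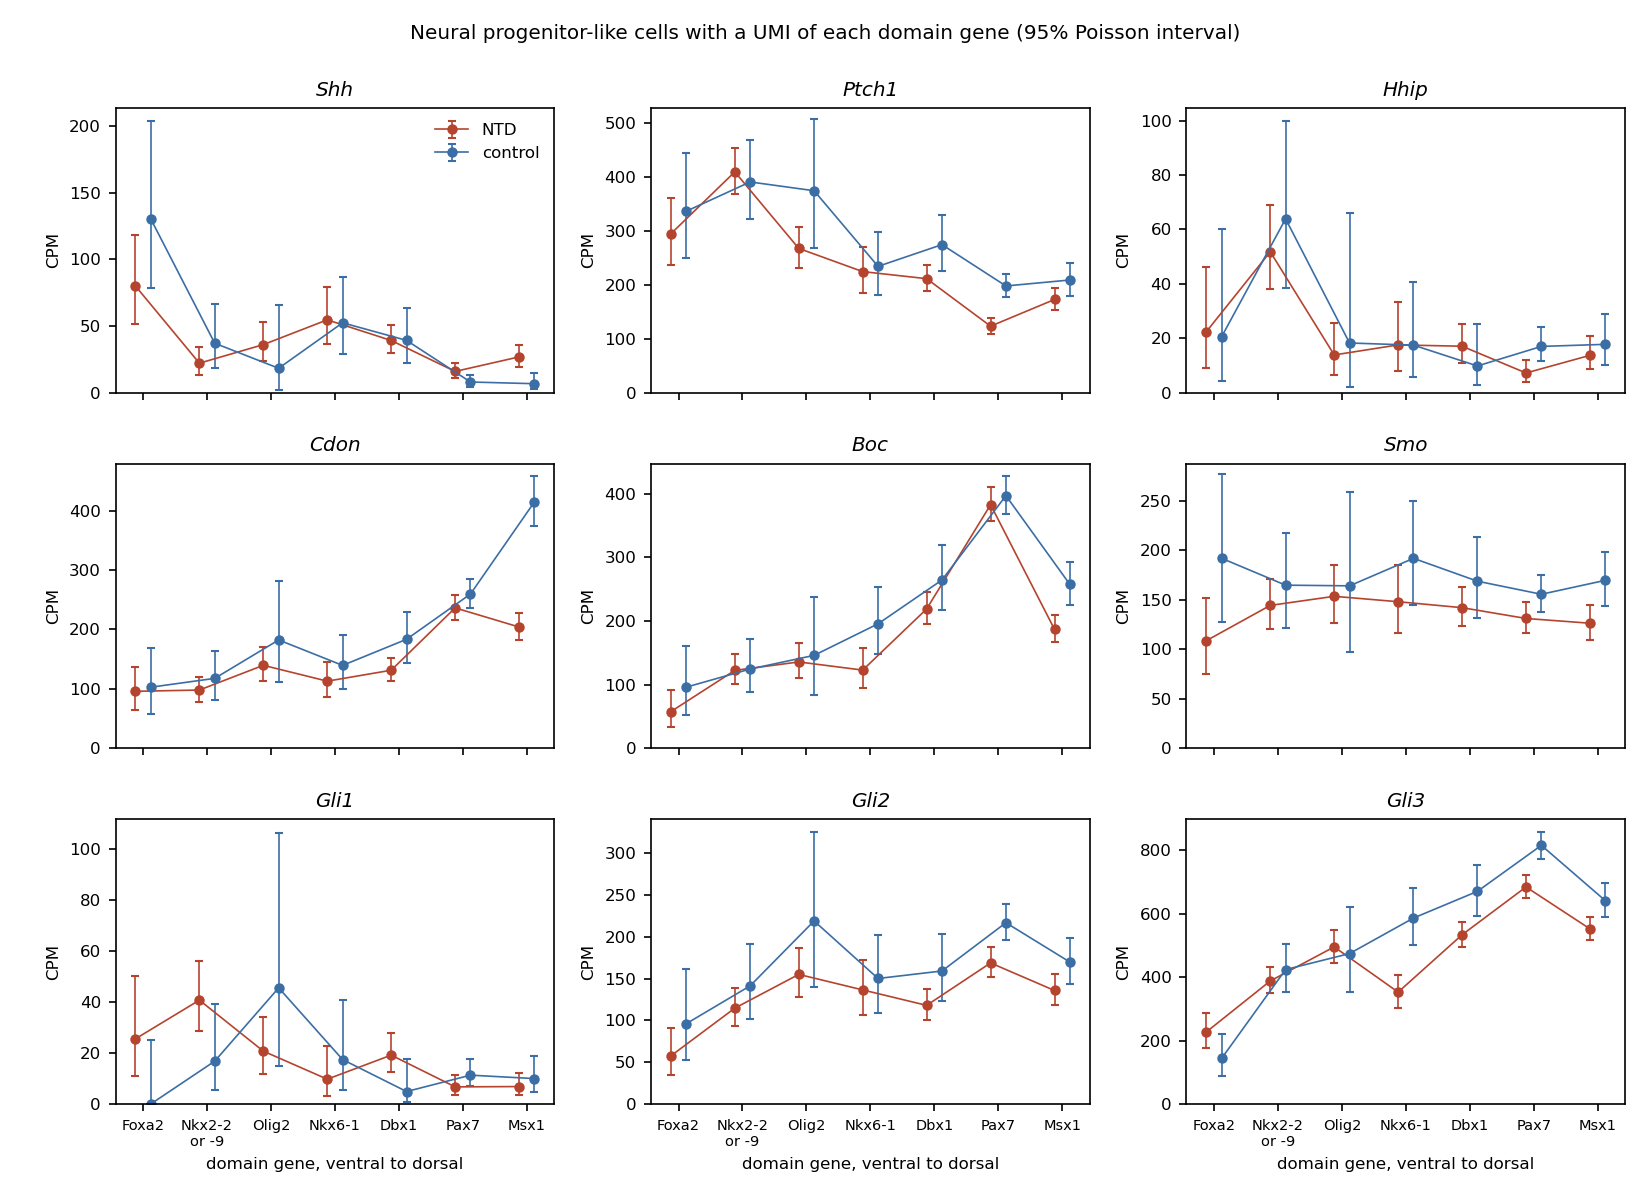
CPM of the 9 genes with 95% Poisson intervals in progenitor-like cells that hold a UMI of 7 domain genes, ordered from ventral (Foxa2) to dorsal (Msx1), with NTD in red left of control in blue. Ptch1 and Hhip peak in Nkx2-2 or Nkx2-9 cells, and Gli3 and Boc in Pax7 cells.

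Outside the neural tube, the median ratio of the measured genes was highest in endothelium-like cells, at 0.42 over 7 genes, against -0.11 over all genes there. Gli1 was 14.2 CPM (14 UMIs) in NTD and 4.55 CPM (6 UMIs) in control (log2 ratio 1.58, 0.17 to 3.31). Gli2 was 45.6 CPM in NTD and 25.8 CPM in control (log2 ratio 0.82, 0.15 to 1.51). These 2 of the 7 genes measured there passed 1.5-fold, beside 8.25% of 10872 genes, and none was lower, beside 15.6%. Neither gene stood above the upper bound of erythroid-like cells in this class. Neural crest or Schwann precursor-like cells held 5.01 CPM of Gli1 (3 UMIs) in NTD and 21.3 CPM (20 UMIs) in control (log2 ratio -1.90, -4.48 to -0.33). With Ptch1, at 76.8 CPM in NTD and 128 CPM in control, these were the 2 of 7 genes at least 1.5-fold lower there, beside 18.8% of 9752 genes, and none was higher, beside 9.57%. In epithelium or surface ectoderm-like cells Ptch1 was 117 CPM in NTD and 204 CPM in control (log2 ratio -0.80, -1.05 to -0.56), the one gene of 9 lower by the fold there, beside 18.9% of 12372 genes, with none higher, beside 8.18%. Erythroid-like cells gave a Ptch1 log2 ratio of -0.89 (-1.56 to -0.27). Ptch1 and Cdon were the 2 of 6 genes lower in erythroid-like cells, beside 29.4% of genes, and none was higher, beside 9.01%. The same 2 of 6 were lower in muscle-like cells, with intervals that hold 0, beside 21.2% of genes lower and 18.8% higher. In macrophage or microglia-like cells none of 6 passed, beside 11.9% of genes higher and 24% lower.

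Other genes of the pathway were counted in neural progenitor-like cells from 7 lists, against 5.16% of all genes at least 1.5-fold higher in NTD and 14.6% lower. None of the 20 genes for transduction inside the cell, such as Sufu, Kif7 and Btrc, and none of the 20 primary cilium genes passed the fold in either direction, with median log2 ratios of -0.18 and -0.26. Of 9 measured genes for ligand release, none was higher and 2 were lower: Scube2, whose product helps release Shh from cells, at 11.7 CPM in NTD and 55.4 CPM in control (log2 ratio -2.24, -2.49 to -2.004), and the glypican gene Gpc3, at 233 CPM in NTD and 525 CPM in control. Erythroid-like cells held as much Gpc3, 269.9 CPM in NTD and 546 CPM in control, so its progenitor values are not above free RNA. Without Hox-positive cells Gpc3 no longer passed the fold (-0.45), and Scube2 was 10.2 CPM in NTD and 17.8 CPM in control (log2 ratio -0.81, -1.31 to -0.25). The 3 lower genes of the 9 were then Hhat, Scube1 and Scube2, beside 14.2% of all genes in those cells. Of 7 co-receptor and surface regulator genes, none was higher and 1 was lower, Disp3, at 4.53 CPM in NTD and 15.2 CPM in control, named after its value was seen. The co-receptor gene Gas1 was 64.9 CPM in NTD and 82.9 CPM in control, and Lrp2, which encodes an endocytic receptor for Shh, was 39.9 CPM in NTD and 33.8 CPM in control.

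The list of ventral neural genes taken as induced by Hedgehog signalling differed more. Of 11, 6 were at least 1.5-fold higher in NTD and 1 was lower, with a median log2 ratio of 0.65. Olig1, Olig2 and Nkx2-9, each low, at 3.25, 11.2 and 6.55 CPM in NTD, were among the 6. Nkx2-1 was 32.5 CPM in NTD and 12.1 CPM in control (log2 ratio 1.42, 1.11 to 1.74). Dbx1, which stands between Nkx6-1 and Pax7 in the domain order above, was 23.9 CPM in NTD and 14.3 CPM in control (log2 ratio 0.73, 0.44 to 1.04). Nkx6-2 was 20.7 CPM in NTD and 13.1 CPM in control (log2 ratio 0.65, 0.34 to 0.98). Sim1 was the lower one, at 15.5 CPM in NTD and 24.8 CPM in control. Free RNA lay near several of these levels in NTD, where erythroid-like cells held 14.9 CPM of Olig2, 7.43 CPM of Nkx2-9, 19.8 CPM of Dbx1 and 19.8 CPM of Nkx2-1. The same neural list was also higher in mesenchyme or fibroblast-like cells. There 7 of 11 genes were past the fold, beside 6.54% of all genes, and 1 was lower, beside 17.4%. The median log2 ratio was 1.54, so the difference was not limited to progenitors. The floor plate gene Foxa2, named after its value was seen, was 4.76 CPM in NTD and 5.39 CPM in control. Of 11 measured dorsal genes, none was higher and 4 were lower. These were Wnt1 and Bmp4, each under 20 CPM, Pax3, at 282 CPM in NTD and 551 CPM in control, and Pax7, at 40.8 CPM in NTD and 81.5 CPM in control. Of 8 measured mesenchymal targets, none was higher and 4 were lower, namely Foxf1, Osr1, Pax1 and Pax9 with at most 5.27 CPM in either library. Erythroid-like cells held more of these genes, such as 17.3 CPM of Pax9 in NTD and 14.98 CPM in control, so the counts are at the level of free RNA. In mesenchyme or fibroblast-like cells 2 of the 10 measured were higher, beside 6.54% of all genes, and 3 lower, beside 17.4%. Their median log2 ratio was -0.034. Beside the same shares of all genes, 4 of 11 measured dorsal genes were higher in this class and 2 lower, with a median log2 ratio of 0.26. Of the co-receptor and surface regulator genes 5 of 7 were lower there, and of the ligand release genes 4 of 9, with none higher in either list.

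Region make-up differed beside these lists, and its part in them was not tested: 615 NTD cells and 117 control cells were hypothalamus or eye field-like, where Nkx2-1 was at its highest, and 31 NTD cells and 898 control cells were hindbrain or spinal cord-like. Without Hox-positive cells, where 5.13% of all genes were higher and 14.2% lower, the ventral list had 5 genes higher and 1 lower of 11. The dorsal list had none higher and 3 lower of 11. The medians were 0.54 for the ventral and -0.35 for the dorsal list. Nkx2-1 was then 32.7 CPM in NTD and 20.1 CPM in control, and Pax7 39.3 CPM in NTD and 58.5 CPM in control. Pax3 (log2 ratio -0.35) and Pax7 (-0.58) no longer passed the fold, and the 3 lower genes of the dorsal list were Lmx1a, Wnt1 and Bmp4. Lmx1a was also on the floor plate marker list. It stood at 348 CPM in NTD and 368 CPM in control in floor plate-like cells, so its ratio is not one of dorsal cells alone. Nkx6-2 lost its call as well, at 0.37 (-0.12 to 0.94). This split was added after the values were seen. In these sums over cells, fewer cells of a kind and less RNA per cell cannot be told apart.

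**Figure D5:**
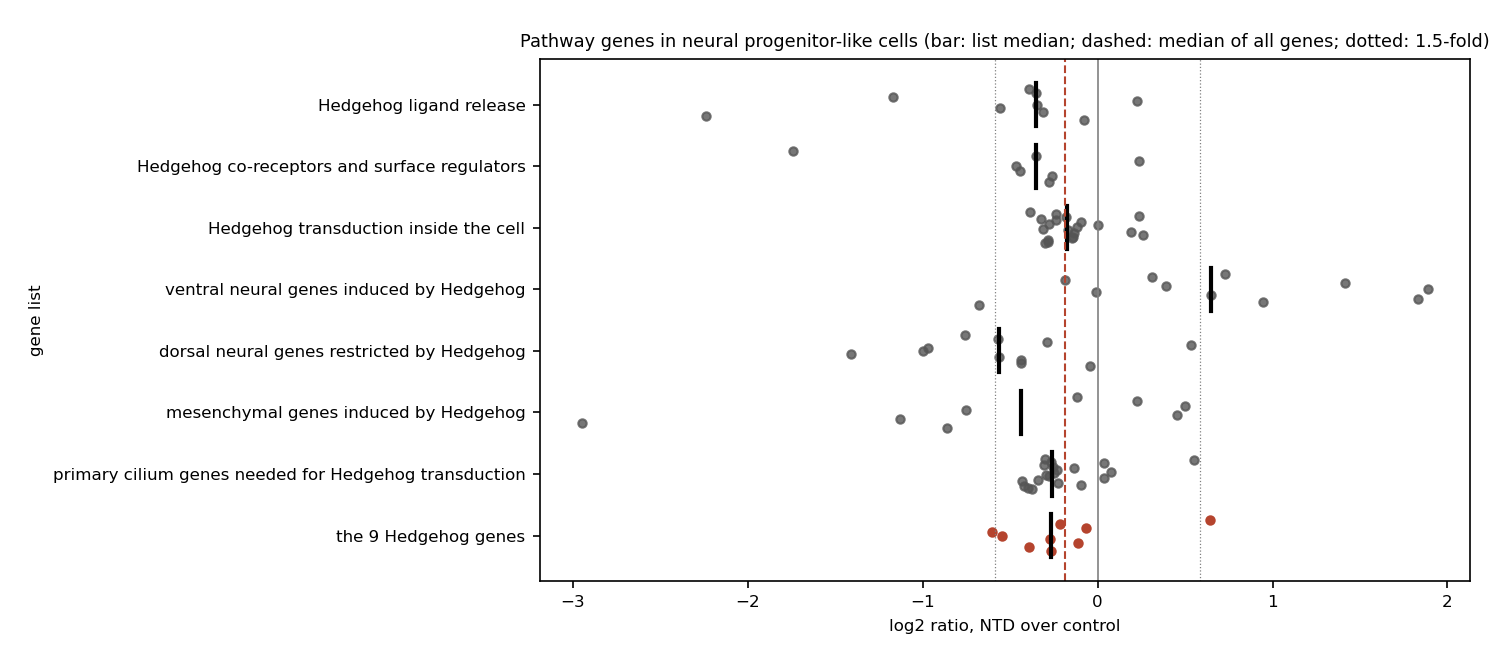
Log2 ratio of NTD over control of single genes in neural progenitor-like cells, 1 row of points for each pathway list and, in red, the 9 Hedgehog genes; the bar is the median of a row, the dashed line the median of all genes and the dotted lines 1.5-fold. The ventral list has its median at 0.65 and the dorsal list at -0.56, while the transduction and cilium lists lie around -0.18 and -0.26.

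The genes whose levels most resembled each of the 9 were found by Pearson correlation of log2(CPM + 1) over 28 units, a named class or region in 1 library, which share libraries and depth and are not independent. Shh was most like Nkx2-4 (r = 0.78), Nkx2-1 (0.74) and Sfta3-ps (0.70), all highest in hypothalamus or eye field-like cells. Ptch1 was most like Nhs (0.71), Gm13184 (0.66) and Cmc4 (0.66), and Hhip like Rnf44 (0.77), Inava (0.71) and Utp14b (0.70). Cdon resembled Axin2 (0.79), Epha4 (0.77) and Tmem132cos (0.74), and Boc resembled Gm29478 (0.80), Pax7 (0.79) and Cachd1 (0.77). Smo was most like Nedd4 (0.92), Zmynd11 (0.87) and Mpdz (0.86). Gli1 was like Xpo1 (0.78) and Cep72 (0.73), Gli2 like Bmpr1b (0.83), Epha4 (0.81) and Gas1 (0.73), and Gli3 like Sclt1 (0.82), Alms1 (0.81) and Nasp (0.79). Among the 9 themselves the closest were Gli2 and Cdon (0.88), Gli2 and Gli3 (0.85) and Gli2 and Boc (0.83), while Ptch1 was closest to Hhip (0.70). Shh was closest to Ptch1 (0.39) and lowest against Cdon (-0.29) and Gli2 (-0.29).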

How the data were processed

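Single cells of embryonic mouse brain were profiled with the 10x Genomics 3′ v3 chemistry, 1 NTD and 1 control library. Raw UMI counts for each gene in each barcode were deposited as the authors' matrices. Per the file headers they come from Cell Ranger 7.0.1, and STAR and mm10 appear in the submitters' processing notes. The sources used here do not state the annotation, the intron setting or the options for calling cells. UMIs tag transcript 3′ ends and do not scale with gene length, so levels of different genes were not compared.

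Barcodes with at least 500 genes, 1000 UMIs and at most 10% mitochondrial UMIs were kept, which removed 0. Scrublet's automatic threshold had called no barcode in a first run, so the highest scores were called at 0.8% per 1000 barcodes, 2905 in NTD and 2759 in control, and removed. Cells were scaled to 10000 UMIs, log transformed and clustered together (scanpy 1.11.5, 2000 variable genes without the 9 genes and the pathway lists, 30 components, 15 neighbours, leidenalg 0.10.2, resolution 1.0). Progenitor-like clusters were clustered again, and 13 of 21 subclusters took one of 6 region names. A name needed at least 3 markers held by 10% of the cells and enriched over the other cells. This scoring rule, including the handling of clusters with few UMIs, was revised after clusters and some values of the 9 genes had been seen; 3 clusters stayed unnamed. Differences from names used elsewhere may come from this rebuilding.

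UMIs were summed per class and library and scaled to CPM, with exact Poisson intervals. Ratios are log2 of NTD over control with 0.5 counts added and exact conditional binomial intervals, for genes with a minimum of 20 UMIs in the libraries together and units with at least 50 cells in each. A gene passed the fold at 1.5. Intervals of cell shares are exact (Clopper-Pearson). Steps were tested on simulated counts. The 9 genes, the lists and the markers were chosen with earlier results of these data known. All 9 genes are named; from each list, up to 4 genes with at least 20 CPM and the largest absolute ratio, besides Disp3, Foxa2, Lrp2, Kif7, Olig1, Olig2, Nkx2-9, Wnt1, Bmp4, Foxf1, Osr1, Pax1 and Pax9, picked once their values were known; and the 3 genes most like each of the 9. An item among these is not reported here. Gene positions are from GENCODE M21. Alternatives tried were TMM scaling, 1 count added, thinned cells, doublets kept, a stricter filter, a matched UMI floor, resolution 2.0, cells without Hox UMIs, other count and fold minimums, and another background.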

Additional observations from a re-analysis of the deposited data

Results flagged for a closer look

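For 5 of the 9 genes the direction of the NTD over control difference was opposite in 2 cell classes, with each interval on its own side of 0, and the difference between the classes was not tested. The Smo log2 ratio was 0.43 in endothelium-like and -0.46 in epithelium or surface ectoderm-like cells. The Gli1 log2 ratio was 1.58 in endothelium-like cells, from 14 UMIs in NTD and 6 in control, and -1.90 in neural crest or Schwann precursor-like cells, from 3 UMIs in NTD and 20 in control. The Gli2 log2 ratio was 0.82 in endothelium-like and -0.40 in neuron-like cells. The Gli3 log2 ratio was 0.38 in endothelium-like and -0.34 in mesenchyme or fibroblast-like cells. The Cdon log2 ratio was 0.31 in epithelium or surface ectoderm-like and -0.77 in erythroid-like cells, which should lack the gene. Endothelium-like cells held the higher value in 4 of these 5 pairs. None of those 4 genes stood above the upper bound of erythroid-like cells there: Smo, for example, was 109 CPM (89.8 to 132) in NTD and 81.2 CPM (66.5 to 98.1) in control, against upper bounds in erythroid-like cells of 91.4 CPM in NTD and 119 CPM in control.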

How the results depend on the processing

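Of 338 alternative values, 209 stayed within the counting interval or 1.5 times the count, 126 moved and 3 changed sign from a value whose interval lay on 1 side of 0. Those 3 came with TMM scaling: Gli3 (0.080) and Boc (0.064) over all kept cells, and Ptch1 (0.00047) in progenitor-like cells. In the same cells Gli1 (0.10 with TMM scaling) and Hhip (0.15 with TMM scaling, 0.26 thinned, 0.28 without Hox-positive cells), whose intervals hold 0, also turned positive. The median of the 9 genes over all kept cells, -0.34, became -0.086 with TMM scaling, -0.50 with thinned cells and -0.43 with a matched UMI floor; in progenitor-like cells it was -0.26 and became -0.050 with TMM scaling. Over all kept cells 0 genes were at least 1.5-fold lower, against 6 at the lower fold minimum tried, 3 with thinned cells, 1 with doublets kept, 2 with the stricter filter and 2 with the floor. In progenitor-like cells 1 gene was lower, against 3 at that minimum, 0 with TMM scaling, 2 with thinned cells, 0 with doublets kept and 2 with the stricter filter, and 1 was higher, against 0 without Hox-positive cells. At the main setting 22.2% of all genes were lower over all kept cells and 14.6% in progenitor-like cells. The shares of all genes under the alternatives are not set beside these counts, so the changes are not a result about the 9 genes. Over 10 alternatives the Shh log2 ratio in progenitor-like cells lay between 0.25 and 0.86 and that of Cdon between -0.79 and -0.31. Low counts limit Shh, Gli1 and Hhip in single regions. No paired analysis was possible because each group has 1 library, and for the same reason no replicate could be left out.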
